A study of Mus musculus with 10 samples.

Results

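This account describes 6 genes of histone H2B in mice that make extra H2BE, measured in the tissue of the nose that senses odors, the main olfactory epithelium (MOE). They are H2bc21 (formerly Hist2h2be), the gene of H2BE itself, and H2bc22, H2bc3, H2bc9, H2bu1-ps and H2bu2. They were taken from 13 H2B genes with a probe set of their own, among 19938 such genes on the array. The 6 were selected on the difference in log2 signal between H2be-GF and WT arrays, so that its values, SEs, intervals and calls for them are a description and support nothing.

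Whole MOE of 5-week old mice was hybridised to 10 Affymetrix Mouse Gene 1.0 ST arrays, 4 of H2be-GF mice and 6 of WT mice. H2be-GF mice carry a transgene in which the promoter of Omp, the gene of olfactory marker protein, drives H2BE with a Flag tag in mature olfactory neurons, and their own H2bc21 gene is intact. H2be-GF is a single transgenic line, and per the study's methods its transgene is silent in a band of mature neurons. RNA of several animals was pooled for each array, those of H2be-GF mice holding more animals, and the series describes an equal mix of males and females, whereas the labels give no sex for an array. Arrays of a genotype are separate replicates by their labels, and the SDs and p-values below measure the spread between these pools.

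H2B is a core protein of the nucleosome. Most of its genes lie in clusters together with the genes of the other histones, are transcribed in S phase and give mRNAs that end in a stem loop in place of a poly-A tail. H2BE is a replication-independent variant, made in olfactory neurons after their last division from an mRNA with a poly-A tail. H2bu1-ps is annotated as a pseudogene, and H2bu2 lies beside it.

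H2bc22, H2bc3 and H2bc9 lie on chromosome 13, H2bu1-ps and H2bu2 on chromosome 11, and H2bc21 on chromosome 3. The bases before the annotated start are shown for the genes with an entry in the RefSeq promoter table, because shared promoter elements are a feature of H2B genes that did not enter the choice. Of the 6 genes, H2bc22, H2bc3, H2bc9 and H2bu2 had an entry. Each line gives the 250 bases before the start, 5′ to 3′ on the strand of the gene, from GRCm38.p6: chr13:21787238-21787487 (plus strand) for H2bc22, chr13:23746484-23746733 (plus) for H2bc3, chr13:23543445-23543694 (minus) for H2bc9 and chr11:58948661-58948910 (plus) for H2bu2. H2bc8 (chr13:23571150-23571399, plus) is added as an H2B gene that limma did not call. Capitals mark the H2B octamer ATTTGCAT, the letters ATTTGAAT, and CCAAT, each on either strand.
H2bc22: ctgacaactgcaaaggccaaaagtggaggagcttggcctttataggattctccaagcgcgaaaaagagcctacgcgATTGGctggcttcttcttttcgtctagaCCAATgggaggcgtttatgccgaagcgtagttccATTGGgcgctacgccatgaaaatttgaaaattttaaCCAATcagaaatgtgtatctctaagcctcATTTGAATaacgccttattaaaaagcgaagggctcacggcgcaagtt
H2bc3: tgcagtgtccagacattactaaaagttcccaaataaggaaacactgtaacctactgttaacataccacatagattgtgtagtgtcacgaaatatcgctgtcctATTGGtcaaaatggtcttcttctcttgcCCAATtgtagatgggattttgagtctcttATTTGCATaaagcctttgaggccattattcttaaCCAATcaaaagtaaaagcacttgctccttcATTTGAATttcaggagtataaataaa
H2bc9: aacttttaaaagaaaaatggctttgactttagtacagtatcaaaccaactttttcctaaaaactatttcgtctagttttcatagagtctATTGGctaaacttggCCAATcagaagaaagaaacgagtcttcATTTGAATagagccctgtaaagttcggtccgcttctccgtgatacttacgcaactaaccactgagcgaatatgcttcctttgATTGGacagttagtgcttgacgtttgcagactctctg
H2bu2: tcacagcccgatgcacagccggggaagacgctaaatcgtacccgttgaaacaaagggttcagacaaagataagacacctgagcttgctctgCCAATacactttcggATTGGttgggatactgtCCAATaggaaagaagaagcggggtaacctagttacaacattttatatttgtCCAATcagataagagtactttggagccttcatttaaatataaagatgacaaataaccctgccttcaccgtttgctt
H2bc8: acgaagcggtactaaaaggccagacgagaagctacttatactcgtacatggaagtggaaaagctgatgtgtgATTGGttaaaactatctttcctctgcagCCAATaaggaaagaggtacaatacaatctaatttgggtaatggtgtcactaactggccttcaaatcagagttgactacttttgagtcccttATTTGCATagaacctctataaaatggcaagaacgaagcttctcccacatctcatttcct

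The octamer is the site through which Oct-1 drives H2B transcription in S phase, and CCAAT and TATAAA are common promoter elements. CCAAT was present before the start of all 18 H2B genes with an entry, against 33.8% of the 32851 promoters in the table. The exact octamer was found in 7 of the 18, which were H2bc3 among the 4 genes above, H2bc1, H2bc8, H2bc14 and H2bc18 among 6 other H2B genes with a probe set of their own, and H2bc6 and H2bc12 among 8 without. Over all promoters the share was 1.6%. TATAAA was found in 8 of the 18, among them H2bc22, H2bc3 and H2bu2, against 12.4% of all promoters. In H2bc3 it lay 10 bases before the start, in H2bu2 39 and 87, and in H2bc22 212. The letters CCCNNGGG, a core of the sites of the olfactory EBF factors, were found in H2bl1 only of the 18, against 11.8% of all promoters.

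The letters ATTTGAAT, which differ from the octamer at 1 base, were searched for after the sequences had been read. They lay 47 bases before the start of H2bc22, 26 before that of H2bc3 and 119 before that of H2bc9. They were not found before H2bu2 or before any of the 6 other H2B genes with a probe set of their own, and they were found in 5 of 8 H2B genes without one. Over all promoters the share was 1.12%. None of these motifs overlapped another in the sequences shown. These are matches of letters in a fixed window, and no binding was measured here. As the letters ATTTGAAT were picked from these sequences, and the 6 genes on their change, nothing is read from which genes hold them.

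**Figure D1:**
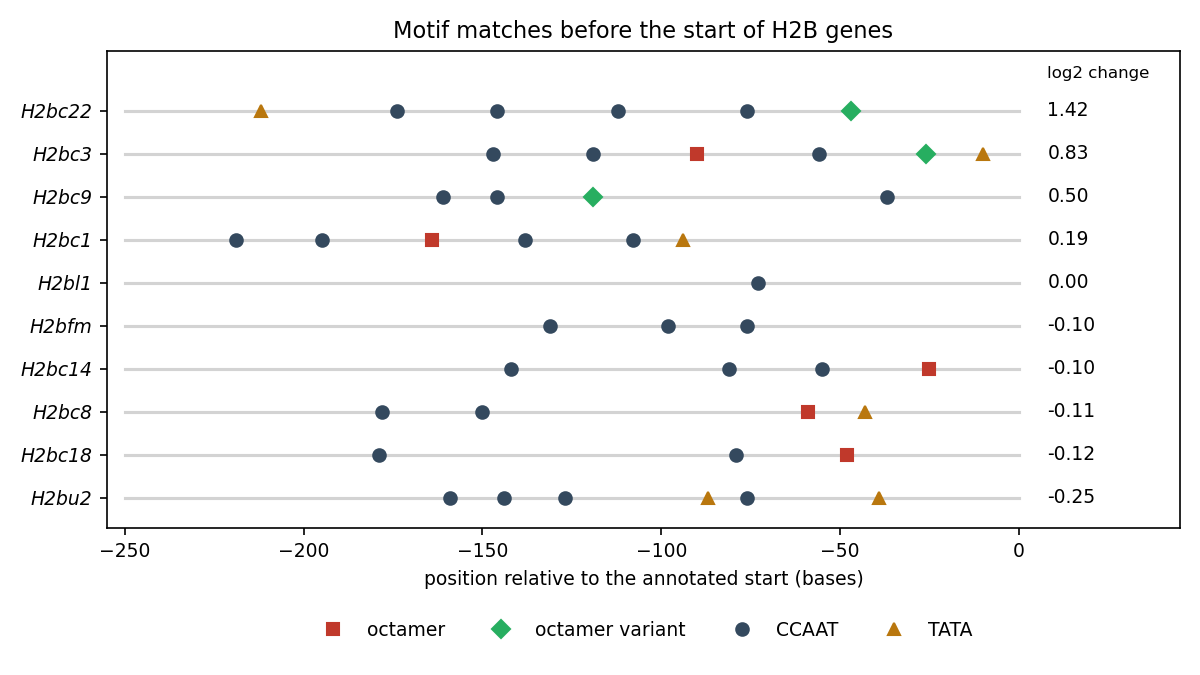
Positions of 4 motifs in the 250 bases before the annotated start (horizontal axis, bases) of the 10 H2B genes that have both a promoter entry and a probe set of their own, ordered by the log2 change from WT to H2be-GF printed at the right. The octamer variant (diamonds) is marked in H2bc22, H2bc3 and H2bc9 and the octamer (squares) in H2bc3, H2bc1, H2bc14, H2bc8 and H2bc18. The variant was searched for after the sequences had been read. Genes described here were selected on this change, so that the order is a description only.

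Array medians ran from 7.74 to 7.91, and the correlation of 2 arrays over the 23194 probe sets tested was 0.969 at the lowest and 0.988 at the highest. Xist, the non-coding RNA of X inactivation, reached at least 11.69 on 5 arrays (H2be-GF 1 and 2, WT 1, 2 and 3) and was at 4.61 or below on the other 5, so that each set holds 2 H2be-GF and 3 WT arrays. Limma with Benjamini-Hochberg adjustment over all probe sets tested called 20 (0.0862%) at an adjusted p under 0.05, of which 11 (0.0474%) were higher in H2be-GF and 9 (0.0388%) lower. It called 11 without H2be-GF 1 and 13 without H2be-GF 3. The median change over all probe sets tested was 0.008 on the log2 scale.

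H2bc21, the gene of the protein that the transgene encodes, was lower in H2be-GF arrays and not higher. Its probe set (10494388) stood at 11.85, 11.92, 11.85 and 11.76 on the 4 H2be-GF arrays, and ran from 12.00 over a median of 12.09 to 12.13 on the 6 WT arrays, in log2 signal. Every H2be-GF array lay below every WT array, with 0.08 between the groups. The means were 11.84 ± 0.07 (SD, n = 4) and 12.07 ± 0.05 (SD, n = 6), a log2 change of -0.23 (SE 0.06) or a ratio of 0.855. Which part of the transcript the probes read is not known here, so that this value does not check the transgene. By quantitative PCR the study found the transgene expressed well above the mouse's own gene.

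Other genes of mature neurons on the same arrays are given beside H2bc21. The mean of 17 markers of mature olfactory neurons was 11.76 to 11.80 in H2be-GF and 11.82 to 11.89 in WT, and none of their values was at 0. No call was made by limma among the 17, where 0.0862% of all probe sets were called, and at an unadjusted p under 0.05 there was 1 lower and 0 higher. The groups did not overlap for 3 of the 17, against 2.89% of all probe sets tested. Taken relative to that marker mean, H2bc21 stood at 0.05, 0.16, 0.05 and -0.01 on the H2be-GF arrays and between 0.18 and 0.28 on the WT arrays, in log2 units. This measure, which restates the H2bc21 values that the gene was selected on, differed by -0.17 between the groups. In whole tissue, fewer cells of a type and less RNA per cell cannot be told apart. For Omp, which lends the transgene its promoter, the change was -0.10 (SE 0.05, limma adjusted p = 0.659), between means of 12.88 ± 0.04 (SD, n = 6) in WT and 12.78 ± 0.03 (SD, n = 4) in H2be-GF. As for H2bc21, every H2be-GF array lay below every WT array for Omp, with 0.02 between the groups. Of the genes around Omp, Myo7a, a myosin gene, was at 0.18 and Capn5, a calpain gene, at 0.09 by the same difference (limma adjusted p = 0.689 and 0.820).

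H2bu2, on chromosome 11, was the other of the 6 genes that was lower. Its probe set (10376444) stood at 7.76, 7.92, 7.95 and 7.74 in H2be-GF, and WT arrays ran from 7.93 over a median of 8.04 to 8.32. The groups overlapped by 0.02, since H2be-GF 3 lay just above the lowest WT array. The change was -0.25 (SE 0.09), from 8.09 ± 0.16 (SD, n = 6) to 7.84 ± 0.10 (SD, n = 4).

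H2bc22 showed the widest difference of the 6. Its probe set (10403951) stood at 9.10, 9.45, 9.24 and 9.28 in H2be-GF, and WT arrays ran from 7.59 over a median of 7.78 to 8.19. All 4 H2be-GF arrays lay above all WT arrays, with 0.90 between the groups. The means of 9.27 ± 0.15 (SD, n = 4) and 7.85 ± 0.22 (SD, n = 6) gave a change of 1.42 (SE 0.12), or 2.67-fold.

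H2bu1-ps, the neighbour of H2bu2, lay higher where H2bu2 lay lower. Its probe set (10386236) stood at 10.84, 10.69, 10.88 and 10.99 in H2be-GF, and WT arrays ran from 9.67 over a median of 9.84 to 9.95. The groups were 0.74 apart. The change was 1.03 (SE 0.08), or 2.04-fold, from 9.83 ± 0.10 (SD, n = 6) to 10.85 ± 0.13 (SD, n = 4).

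H2bc3 and H2bc9, both in the chromosome 13 histone cluster, were higher by smaller amounts. The H2bc3 probe set (10404061) stood at 10.22, 10.13, 10.29 and 10.11 in H2be-GF, and WT arrays ran from 9.18 over a median of 9.37 to 9.51. The groups were 0.61 apart, and the change was 0.83 (SE 0.07), or 1.78-fold, from 9.36 ± 0.12 (SD, n = 6) to 10.19 ± 0.08 (SD, n = 4). The H2bc9 probe set (10408197) stood at 9.76, 9.61, 9.69 and 9.80 in H2be-GF, and WT arrays ran from 9.07 over a median of 9.22 to 9.28. These groups were also separate, 0.33 apart, and the change was 0.50 (SE 0.06), or 1.42-fold, from 9.21 ± 0.07 (SD, n = 6) to 9.71 ± 0.08 (SD, n = 4).

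**Figure D2:**
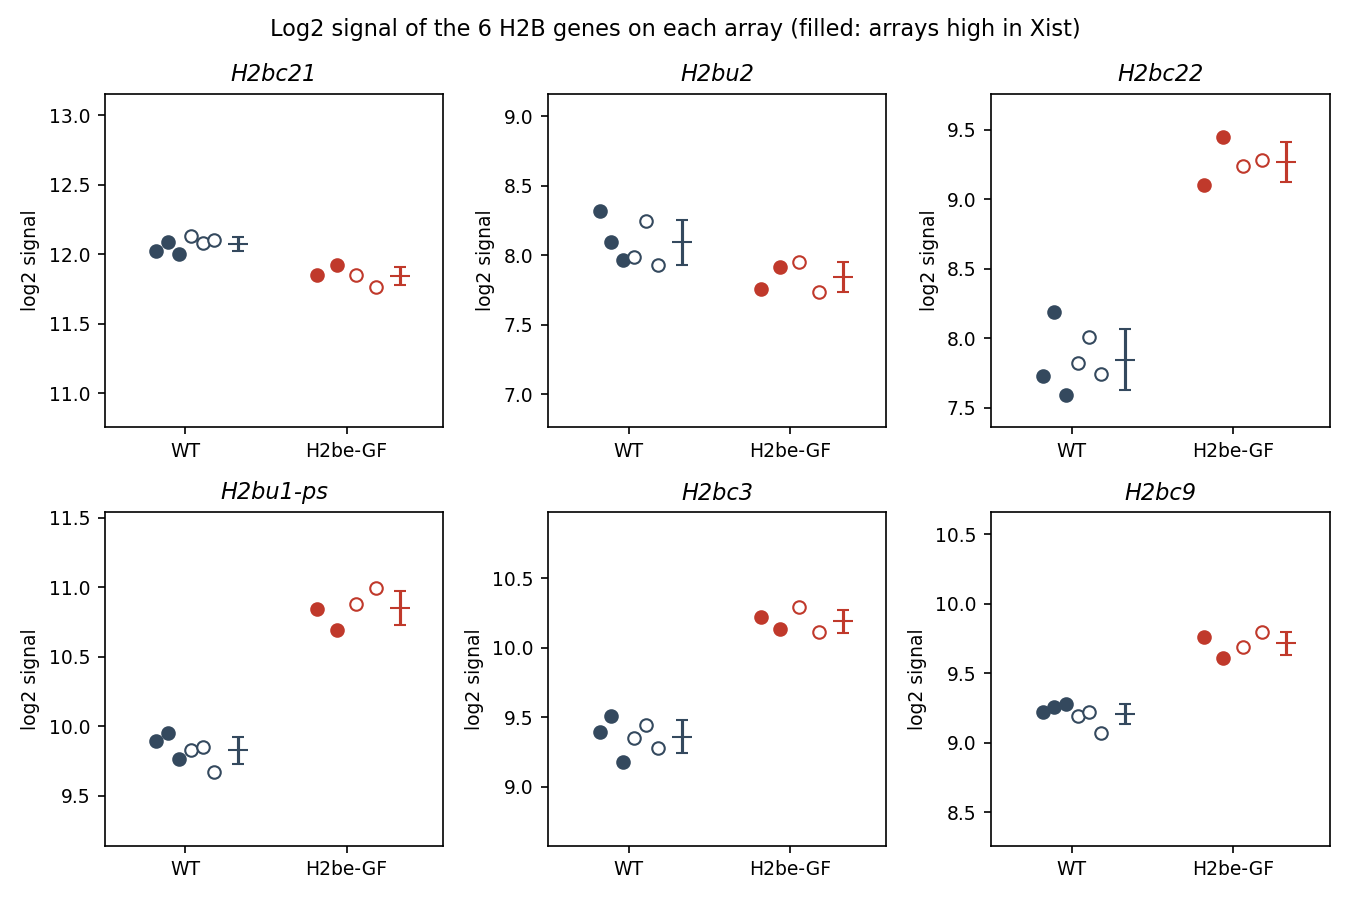
Log2 signal (vertical axis) of the 6 H2B genes on each WT (dark) and H2be-GF (red) array, with filled points for arrays high in Xist and the mean ± SD beside the points. Each panel spans the same number of log2 units. H2bc22, H2bu1-ps, H2bc3 and H2bc9 are higher on all 4 H2be-GF arrays, H2bc21 is lower on all 4, and the groups of H2bu2 overlap.

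All 6 genes passed the filter on low signal, a mean over all arrays above 5. Limma called 4 of the 6, all of them higher, where 0.0474% of all probe sets were called higher. The groups did not overlap for 5 of the 6, 4 higher and 1 lower. Over all probe sets tested 671 (2.89%) did not overlap, 299 (1.29%) with H2be-GF higher and 372 (1.6%) with H2be-GF lower. As the 6 genes were chosen with this contrast known, nothing is read from these counts. The call of H2bc9 was lost without H2be-GF 1, 3 or 4, while its change stayed between 0.48 and 0.54 with any 1 array left out.

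The other 7 H2B genes with a probe set of their own gave no call. Limma called 0 of 7, against 0.0862% of all probe sets, with 1 at an unadjusted p under 0.05, and the groups of all 7 overlapped. Their changes ran from -0.12 to 0.19, and 5 were below 0. H2bc1, which codes for an H2B of the testis, had the highest change, at 9.21, 9.21, 9.14 and 8.90 in H2be-GF and from 8.84 to 9.03 in WT (0.19, SE 0.08, limma adjusted p = 0.522). The log2 difference was -0.11 for H2bc4 and H2bc8, -0.10 for H2bc14 and H2bfm, -0.12 for H2bc18 and 0.00 for H2bl1. As the 6 genes were taken from these 13 on the same difference, the values of the other 7 are a description too.

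A further 8 probe sets are annotated with an H2B gene together with other genes, with 2 to 15 symbols each, and fell into separate kinds. Limma called 4 of the 8, all higher in H2be-GF, where 0.0474% of all probe sets were called higher. The 11 probe sets called higher over all those tested include these 4 and the called 4 of the 6 genes. The 4 shared probe sets changed by 1.23 (probe set 10403948), 1.03 (10403959 and 10408087, whose values are identical) and 0.98 (10403980). Probe set 10403948 stood at 12.56, 12.58, 12.53 and 12.64 in H2be-GF and ran from 11.27 over a median of 11.36 to 11.42 in WT, and 1.11 lay between the groups. The other 4 had differences of -0.18 to -0.13 and were not called (10408210, 10408212, and 10403978 and 10408070, whose values are identical). The annotation does not separate these kinds, since all 4 that were called and 3 of the 4 that were not carry 14 or 15 H2B symbols, H2bc22, H2bc3 and H2bc9 among them. The remaining probe set, 10408212, carries an H2B and an H1 gene. Genes of near-identical sequence share array probes, and by these values the H2B genes of the chromosome 13 cluster and the RNA of the transgene cannot be told apart. Whether any H2B probe set reads that RNA, that of H2bu1-ps on chromosome 11 included, was not tested.

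**Figure D3:**
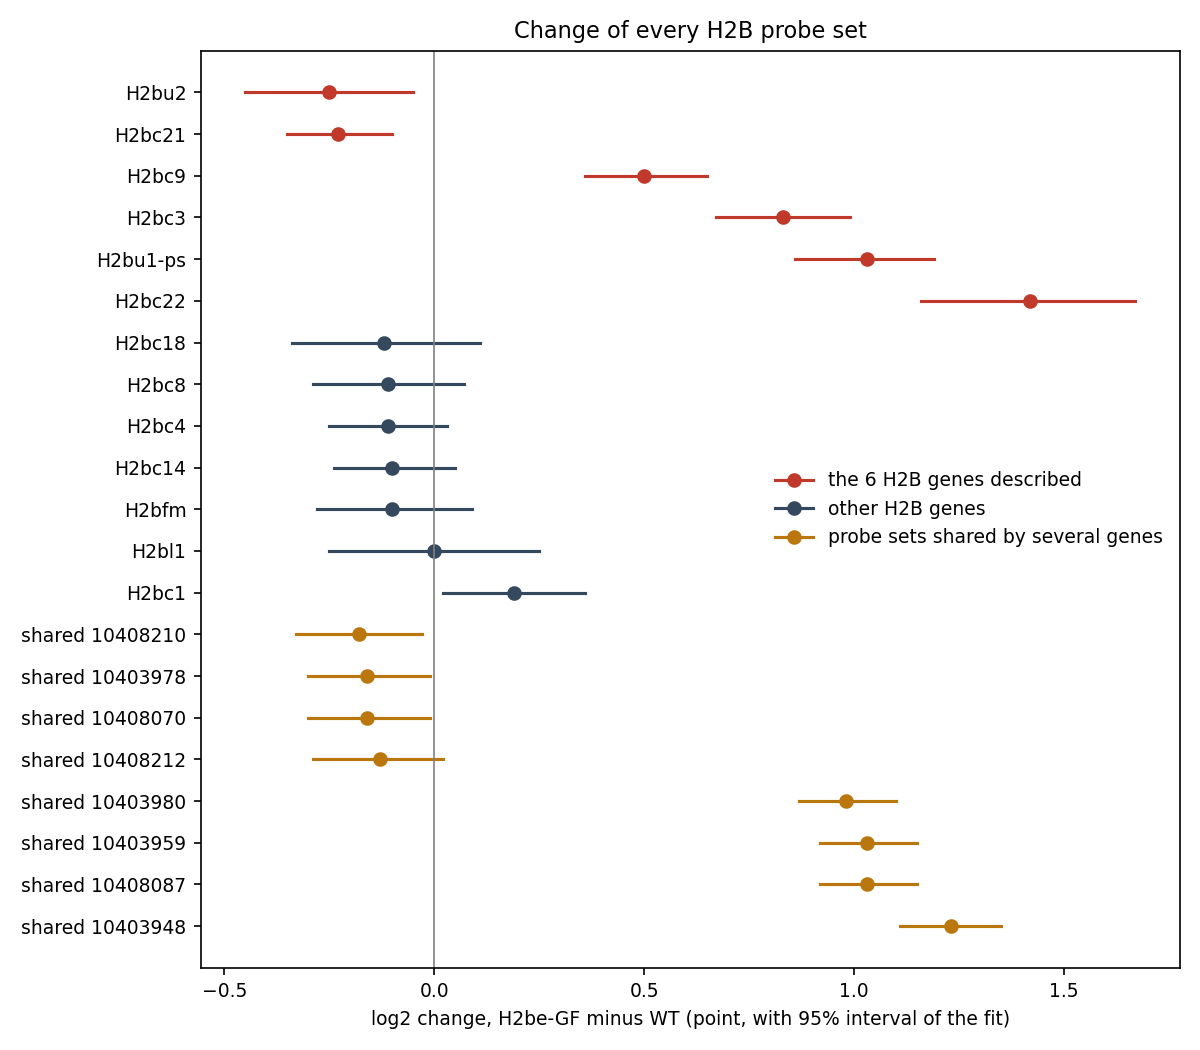
Log2 change from WT to H2be-GF (horizontal axis; points, with lines for the 95% interval of the fit) of the 6 genes described (red), the other 7 H2B genes (dark) and 8 probe sets shared by several genes (ochre, by probe set number). The intervals of the 6 genes, which were selected on this difference, are a description only. Points lie near 0 or below, or at 0.50 and above, with only H2bc1 at 0.19 between.

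The nearest tested genes beside the 6 gave no call, and genes without a tested probe set of their own were passed over. The nearest tested genes on each side comprised 10 that are not among the 6, and 7 of these are histone genes. None of the 10 was called by limma, where 0.0862% of all probe sets were called, and 2 had an unadjusted p under 0.05. Changes of the 10 ran from -0.19 to 0.17. H1f5, a linker histone gene before H2bc22 with 2 genes between, was at a difference of -0.14. Zfp184, a zinc finger gene after H2bc22 with 31 genes between, was at -0.03. H1f2, before H2bc3 with 2 genes between, was at 0.17, and H2ac4, directly after H2bc3, at -0.09. H4c8, before H2bc9 with 2 genes between, and H3c7, directly after H2bc9, were both at 0.06. H2aw, an H2A gene with 1 gene between it and H2bu1-ps, was at -0.19 (SE 0.07, limma adjusted p = 0.457). Rnf187, on the far side of H2bu2 with 1 gene between, was at 0.02. Bola1, before H2bc21 with 2 genes between, was at -0.15 and H3c15, an H3 gene directly after H2bc21, at -0.05.

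Genes of the other histones, which share the clusters and the S phase timing of canonical H2B, gave no call either. Of 20 genes of H2A, H3, H4 and H1 limma called 0, where 0.0862% of all probe sets were called. At that share 0 calls are usual for a list of this length. By an unadjusted p under 0.05, 2 of the 20 were higher and 3 lower, and the median change was -0.02 beside 0.008 over all probe sets. H4c9 had the smallest p of these, with every H2be-GF array above every WT array (9.40 ± 0.07, SD, n = 4, against 9.12 ± 0.13, SD, n = 6; 0.28, SE 0.08, limma adjusted p = 0.344). Of 13 regulators of histone mRNA 0 were called by limma and 0 had an unadjusted p under 0.05, with a median of -0.01 and Eri1, an exonuclease that acts on histone mRNA, at 0.14.

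Genes of dividing cells, in which canonical H2B mRNA is made, were not called. Where 0.0862% of all probe sets were called, limma called 0 of 19 S phase genes and 0 of 14 genes of G2 and M phase. At an unadjusted p under 0.05, 1 S phase gene was higher and 1 lower, with 0 of the G2 and M phase genes. The median changes were -0.07 for S phase, with 14 of the 19 lower, and -0.09 for G2 and M phase, with 11 of the 14 lower. Gins2, a subunit of the replicative helicase, had a difference of 0.22, unlike most of its list, and Cdk1, the kinase of mitotic entry, of -0.20. The part of dividing cells in the changes of H2B genes was not tested.

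Among markers of the cell types of the tissue, limma called 1 gene, Lhx2, a homeodomain factor needed for olfactory neurons to mature, which was listed with progenitor markers and rose by 0.37 (SE 0.06, limma adjusted p = 0.0425). It was 1 of 8 progenitor markers tested, of which 2 were higher at an unadjusted p under 0.05, and whose median change was 0.02. Respiratory ciliated cell markers were lower in 10 of 10 genes, with 7 at an unadjusted p under 0.05, 0 called by limma and a median of -0.16. Their mean level ran from 9.35 to 9.44 in H2be-GF and from 9.48 to 9.67 in WT, none of their values was at 0, and Tppp3, a tubulin-binding protein gene, was at a difference of -0.21. The part of this shift in the changes of H2B genes was not tested.

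The remaining lists had median changes between -0.04 and 0.05 and 0 genes called by limma, where 0.0862% of all probe sets were called. At an unadjusted p under 0.05 they held 1 lower of 11 immature neuron markers (median -0.01; Stmn4, -0.17), 1 lower of 7 horizontal basal cell markers (median -0.04; Krt15, -0.54), 1 higher of 10 immune markers (median 0.03; Ptprc, 0.27) and 1 lower of 5 markers of blood and vessels (median 0.04; Alas2, -0.32). There were 0 at that level among 7 sustentacular cell markers (median 0.02; Ermn, 0.09), 9 of Bowman glands (median -0.02; Bpifb9b, -0.21), 6 of ensheathing cells (median 0.01; Npy, 0.22) and 4 of vomeronasal neurons (median 0.05; Vmn1r51, 0.12). Of the mature neuron markers 14 of 17 were lower, with a median of -0.09, and Cnga4, a subunit of the olfactory transduction channel, was at -0.13. Each of the 17 was at 10.51 or above on every array.

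**Figure D4:**
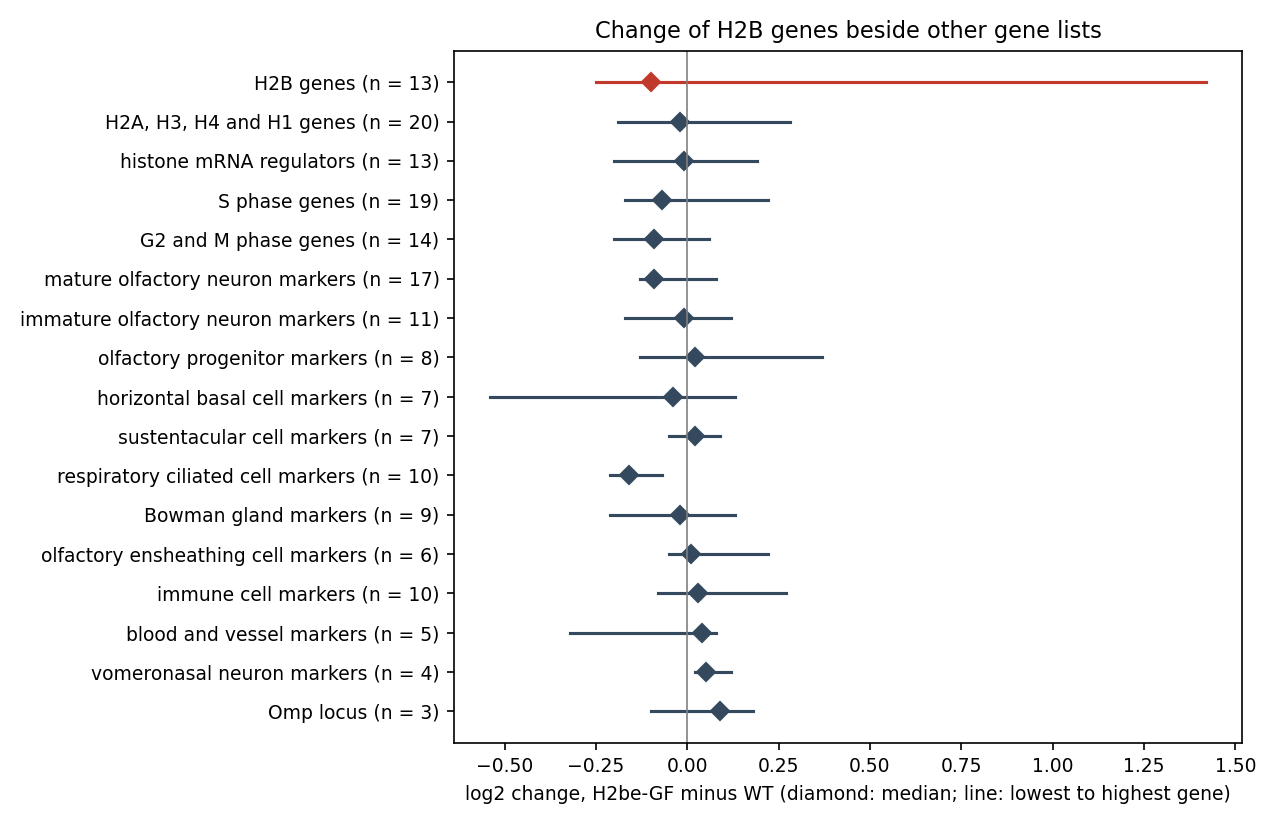
Median (diamond) and range from the lowest to the highest gene (line) of the log2 change from WT to H2be-GF for all 13 H2B genes with a probe set of their own (red) and 16 other gene lists, with the number of genes tested in brackets. The H2B line reaches 1.42, at H2bc22, and its median is -0.10, while no other list reaches above 0.37. As H2bc22 was selected on this difference, the reach of the H2B line beside the other lists is a description only.

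The size of the difference between H2be-GF and WT was compared between the sets of arrays high and low in Xist, which did not enter the choice of the genes. In arrays high in Xist H2bc22 changed by 1.44, H2bu1-ps by 0.90, H2bc3 by 0.82 and H2bc9 by 0.43. In arrays low in Xist the changes were 1.40, 1.15, 0.85 and 0.58. H2bc21 changed by -0.15 and -0.30, and H2bu2 by -0.29 and -0.21. The direction in each set is fixed for the 5 genes whose groups did not overlap over the same arrays. H2bu2, whose groups overlapped, was selected on the same difference, so that for all 6 genes only the size is compared.

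A test of the genotype by Xist set interaction gave no call for any of the 6. Limma called 0 of 23194 probe sets (0%), with 678 at an unadjusted p under 0.05, and 0 of the 6 genes had an unadjusted p at that level. The change in the high set minus that in the low set was 0.04 (95% interval -0.53 to 0.61) for H2bc22, -0.03 (-0.40 to 0.34) for H2bc3 and -0.15 (-0.45 to 0.15) for H2bc9. It was -0.26 (-0.59 to 0.08) for H2bu1-ps, 0.15 (-0.12 to 0.42) for H2bc21 and -0.08 (-0.52 to 0.36) for H2bu2. With 2 H2be-GF arrays in a set, differences of up to these bounds may have gone undetected. Of the other 7 H2B genes, H2bfm, an X-linked gene, had a difference of -0.37 (-0.70 to -0.05), with an unadjusted p of 0.0293 and a limma adjusted p of 1 over the 10 arrays.

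**Figure D5:**
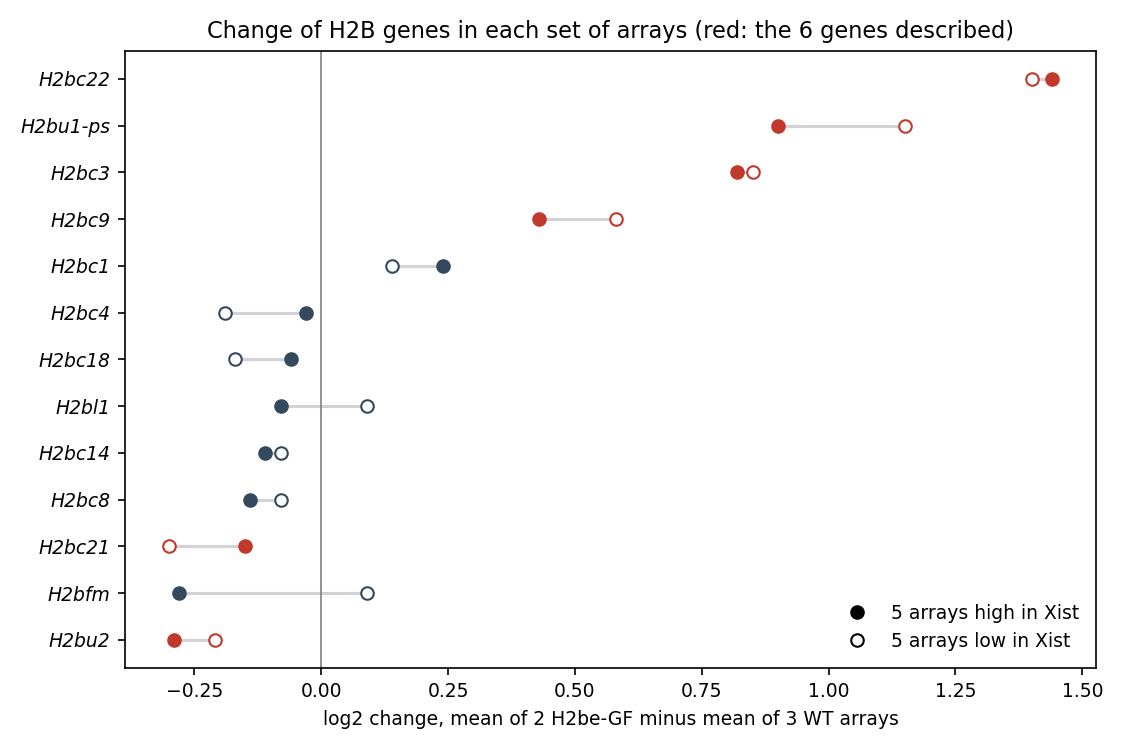
Log2 change from WT to H2be-GF (horizontal axis) of 13 H2B genes in the 5 arrays high in Xist (filled) and the 5 arrays low in Xist (open), with the 6 genes described in red. H2bc22 changed by 1.44 and 1.40, and H2bu1-ps shows the widest distance of the red pairs, 0.90 and 1.15.

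Within a genotype the H2B genes did not all vary together. After each genotype's mean was taken out, log2 values over the 10 arrays correlated at 0.77 between H2bc9 and H2bu1-ps, 0.60 between H2bc22 and H2bc3 and 0.51 between H2bc3 and H2bu1-ps. They correlated at 0.09 between H2bc3 and H2bc9 and at -0.10 between H2bc22 and H2bc9. H2bc21 correlated at -0.71 with H2bc9, -0.52 with H2bu1-ps, 0.47 with H2bc22, 0.29 with H2bc3 and 0.01 with H2bu2. The arrays share their normalization, and these values are a description over 10 arrays only.

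The genes most like H2bc21 on that measure were Crk, an adaptor of kinase signalling (r = 0.934), Gtpbp4, a GTPase of ribosome assembly (0.918), and Cul3, a ubiquitin ligase scaffold (0.904). For H2bc22 they were Pon1, a lactonase (0.981), Rpl21, a ribosomal protein gene (0.979), and Cdkn1b, an inhibitor of cyclin-dependent kinases (0.977). These are the highest of all named probe sets with a mean above 7, of which the highest percentile began at 0.766 for H2bc21 and at 0.88 for H2bc22.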

How the data were processed

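Whole MOE RNA of 4 samples of H2be-GF and 6 of WT mice was measured on Affymetrix Mouse Gene 1.0 ST arrays. The values that the authors deposited are log2 signals per probe set. They were made in Affymetrix Expression Console by IterPLIER with sketch-quantile normalization, once arrayQualityMetrics had been run to look for outlying arrays. Tool versions and a genome build are not given in the sources used here. Normalization to common quantiles removes shifts common to most genes.

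Names came from the platform annotation. Of 35556 probe sets it gave 1 symbol to 21789, several to 1621 and none to 12146. Symbols were updated through a RefSeq gene table of GRCm38.p6, which matched 21698 of those with 1 symbol and also gave the order of genes. Promoters came from RefSeq, of the same build. No protein or probe sequences were used here.

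The probe sets with a symbol and a mean above 5, 23194 in all, were fitted in R 4.3.3 by lmFit and eBayes of limma 3.58.1, two-sided and without a covariate, and p-values were adjusted by Benjamini-Hochberg. A call means an adjusted p under 0.05. The genotype by Xist set interaction was fitted in the same way. The number of arrays limits the precision.

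The 6 genes and all gene lists were chosen with earlier results of these data known. Named were the 6 genes, every other H2B gene with 1 symbol, Omp, Capn5, Myo7a, of each list the gene with the smallest p (or up to 2 called), the nearest tested neighbours of each of the 6, and the 3 genes most like H2bc21 and H2bc22. Alternatives covered normalization, centring, an offset of 16 before log2, weights per array, a block for the replicate number, the variance model, filters on dim probe sets, the Xist sets, and each array left out. Plots were drawn with matplotlib 3.10.9.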

Additional observations from a re-analysis of the deposited data

Results flagged for a closer look

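Of 26 groups of arrays checked, the 4 H2be-GF and the 6 WT arrays for each of 13 H2B genes, 1 held an array that stood apart from the rest of its group. On H2be-GF 1 the H2bc8 probe set was at 9.13, while the other 3 H2be-GF arrays lay between 8.85 and 8.89. The check marks about 1 in 20 groups by chance. None of the 6 genes described above had such an array.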

How the results depend on the processing

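Of 217 values recomputed under alternatives, 203 moved by less than the SD between replicates (counts by no more than 1.5 times) and 14 moved further. None of the 6 genes' changes turned direction, but the genes were selected on this difference. For the 5 whose groups did not overlap, leaving out or splitting arrays could not turn it. The number of probe sets called by limma was 20, and it was 114 with a trended robust variance, 36 with a mean above 7, 5 with the replicate block, 0 within the arrays high in Xist, 0 within those low in Xist, and 11 to 19 with 1 array left out (11 without H2be-GF 1 and 13 without H2be-GF 3). Of the 6 genes 4 were called, and 5 with a trended robust variance, which added H2bc21, 0 within the arrays high in Xist, 0 within those low in Xist, and 3 to 4 with 1 array left out, where H2bc9 lost its call without H2be-GF 1, 3 or 4. These smaller fits hold fewer arrays. Within the arrays high and low in Xist H2bc21 changed by -0.15 and -0.30, and H2bu1-ps by 0.90 and 1.15. With 1 array left out H2bc21 changed by -0.25 to -0.20, H2bc22 by 1.36 to 1.49, H2bc3 by 0.80 to 0.86, H2bc9 by 0.48 to 0.54, H2bu1-ps by 0.98 to 1.08 and H2bu2 by -0.29 to -0.20. Limma called 0 of the other 7 H2B genes and 0 of 20 genes of H2A, H3, H4 and H1 under each of 21 alternatives, and the interaction called 0 of the 6 genes under each of 7.

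The replicate numbers gave no consistent pairing of the arrays by correlation. Whether arrays with the same number share a processing batch was not tested. Deviations from the group means of arrays with the same number correlated at 0.530, 0.219, -0.423 and 0.261, and of the H2be-GF arrays only number 1 correlated best with the WT array of its own number. With the replicate block, which leaves WT 5 and 6 without a partner, limma called 1 of the 6 genes, H2bc22, at changes of 1.43 for H2bc22, 0.99 for H2bu1-ps, 0.83 for H2bc3 and 0.47 for H2bc9.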
